A study of Mus musculus with 56 samples.

Results

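The peaks described here are those of RNA polymerase II phosphorylated at serine 5 (RNAPII-pS5) across the whole genome of mouse bone marrow-derived macrophages (BMDMs), before and 1 hr after interleukin-4 (IL-4). All peaks of 4 of the 56 samples were taken, whatever their score or position, and they were read by annotation class and by gene. Untreated replicates 1 and 2 held 35424 and 30639 peaks, and IL-4 replicates 1 and 2 held 31883 and 30420 peaks. Merged where they overlapped by at least 1 bp, these peaks formed 41245 regions.

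Cells were from the marrow of wild-type mice of 8 to 12 weeks, and both groups were differentiated for 6 days with L929 supernatant, a source of M-CSF. The untreated group received no IL-4, and the treated group received 20 ng/ml for 1 hr. The labels number 2 replicates per group. The paper calls such libraries independent biological replicates, and p-values measure only the spread between these samples. BMDMs are grown from marrow progenitors in culture and are a model of macrophages, not a tissue population.

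RNA polymerase II carries a long tail of repeats, and serine 5 of the repeats is phosphorylated when the enzyme initiates and pauses near a transcription start site. Enhancers that are being transcribed carry this form too. IL-4 binds a receptor on macrophages whose kinases phosphorylate STAT6, a transcription factor that enters the nucleus and binds a short palindrome in DNA, and the cells move toward the alternatively activated state.

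Sequences are shown for the intron and intergenic regions that changed most, so that the DNA under the strongest changes away from promoters can be read. Each is the 200 bp centre of the highest peak, on the plus strand of mm10, and capitals mark every match to 6 motifs searched on both strands. The motifs were the STAT6 palindrome TTCNNNNGAA, the shorter STAT palindrome TTCNNNGAA, the PU.1 core GAGGAAGT, the AP-1 site TGANTCA, the C/EBP core TTGCNNAA, and the NF-kB site GGGANTTTCC. Regions are named by the gene with the nearest start site in the files. The first set holds the 3 largest rises among called regions with a peak in all 4 samples.
2310020H05Rik (chr13:99100702-99100901): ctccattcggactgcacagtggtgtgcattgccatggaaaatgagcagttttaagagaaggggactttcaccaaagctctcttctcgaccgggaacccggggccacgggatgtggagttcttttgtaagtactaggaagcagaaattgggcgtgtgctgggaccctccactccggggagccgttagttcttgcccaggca
BC017158 (chr7:128344845-128345044): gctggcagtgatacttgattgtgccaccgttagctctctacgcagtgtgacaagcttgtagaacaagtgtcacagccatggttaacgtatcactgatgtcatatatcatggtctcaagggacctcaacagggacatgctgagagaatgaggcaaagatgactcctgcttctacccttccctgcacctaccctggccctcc
Slc22a12 (chr19:6670051-6670250): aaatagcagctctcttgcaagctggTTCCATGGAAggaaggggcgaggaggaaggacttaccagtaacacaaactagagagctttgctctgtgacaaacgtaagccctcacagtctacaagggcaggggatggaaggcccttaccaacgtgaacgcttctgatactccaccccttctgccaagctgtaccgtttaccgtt

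The second set holds 2 of the 3 largest falls chosen by the same rule.
Ivns1abp (chr1:151270807-151271006): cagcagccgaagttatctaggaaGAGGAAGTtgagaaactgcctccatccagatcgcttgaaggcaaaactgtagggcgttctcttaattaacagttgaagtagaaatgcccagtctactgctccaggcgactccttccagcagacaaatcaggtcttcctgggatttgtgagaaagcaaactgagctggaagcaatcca
Stab1 (chr14:31166745-31166944): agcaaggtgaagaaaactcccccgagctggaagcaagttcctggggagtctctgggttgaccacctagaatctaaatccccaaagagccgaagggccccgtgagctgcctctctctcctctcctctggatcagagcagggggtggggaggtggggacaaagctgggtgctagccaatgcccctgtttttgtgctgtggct

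The third set holds the 3 highest-scoring called regions with a peak in both IL-4 samples and in neither untreated sample, and was added after the values had been seen.
Gpc1 (chr1:92749515-92749714): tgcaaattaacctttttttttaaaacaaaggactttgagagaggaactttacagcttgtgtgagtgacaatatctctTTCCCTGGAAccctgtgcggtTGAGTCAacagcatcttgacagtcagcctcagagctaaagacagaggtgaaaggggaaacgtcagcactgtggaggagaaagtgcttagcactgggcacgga
1700036G14Rik (chr3:85413208-85413407): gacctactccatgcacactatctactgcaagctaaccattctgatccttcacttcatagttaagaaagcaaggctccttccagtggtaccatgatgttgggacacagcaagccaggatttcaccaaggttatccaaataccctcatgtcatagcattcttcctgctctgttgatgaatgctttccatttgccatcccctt
Tax1bp1 (chr6:52802119-52802318): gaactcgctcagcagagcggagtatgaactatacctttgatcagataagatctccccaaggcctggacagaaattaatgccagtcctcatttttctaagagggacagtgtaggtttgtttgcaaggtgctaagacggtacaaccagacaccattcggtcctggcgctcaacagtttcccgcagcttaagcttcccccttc

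The STAT6 palindrome was found in the windows near Slc22a12 and Gpc1, the AP-1 site in that near Gpc1, and the PU.1 core in the window near Ivns1abp. The other 5 windows matched none of the 6 motifs.

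Of the peaks of a sample, between 21.4% and 25.2% lay at promoters, between 32.6% and 35.0% in introns, and between 29.9% and 32.2% between genes. Promoters held 23.3% ± 2.69 (SD, n = 2) of the untreated peaks. With IL-4 they held 24.2% ± 1.28 (SD, n = 2), and the groups overlapped (exact permutation test, two-sided, p = 1). Intergenic sequence held 31.7% ± 0.766 (SD, n = 2) of the untreated peaks. With IL-4 it held 30.3% ± 0.617 (SD, n = 2), and the groups did not overlap. Its p of 0.33 in the same test was the smallest that 2 samples against 2 can give. Without untreated replicate 1, which had the most peaks, the difference in the promoter share turned from 0.869 to -1.04 percentage points.

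**Figure D1:**
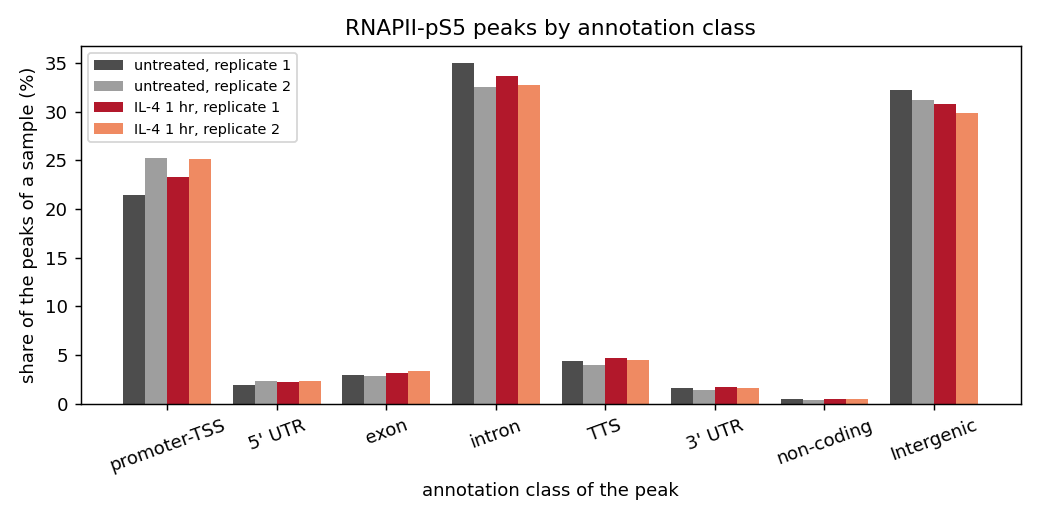
Share of the peaks of each sample (y axis, %) in each annotation class (x axis), with 1 bar per sample. Introns, intergenic sequence and promoters held most peaks in all 4 samples, and untreated replicate 1 had the lowest promoter share (21.4%).

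Each peak carries a score from the peak caller, a p- or q-value on a negative log10 scale, which grows with sequencing depth as well as with enrichment. Reads were not used here, so depth is unknown. The median score over the 22029 regions with a peak in all 4 samples was 25.3 and 17.7 in the untreated samples and 20.3 and 18.9 after IL-4. Log2 scores were therefore centred, sample by sample, on the median of those shared regions, and a change below is a change of score and not of binding. After centring, the difference between samples of a group had an SD of 0.484 (untreated) and 0.499 (IL-4) on the log2 scale, and between groups it was 0.619 to 0.643. Of 12 macrophage markers 10 had a peak in each sample. Of 22 markers of other cells, 9 to 11 had one, and the summed score of peaks named Cd3d was 64.2, 64.5, 58.6, and 55.0 in the 4 samples, so the nearest gene of a peak does not by itself name a cell type.

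RNAPII-pS5 scores changed in both directions after IL-4. Of 32095 regions with a peak in at least 2 samples, 1262 rose, or 3.93%, and 772 fell, or 2.41% (limma, Benjamini-Hochberg adjusted p of at most 0.1). Calls were made on the difference between the groups, so raw scores that do not overlap between them mark no single called region. The median change was 2.27 among the regions that rose and -2.20 among those that fell. A peak was present in all 4 samples at 501 of the risen regions and in the IL-4 samples alone at 620. For the fallen regions, 264 had a peak in all 4 samples and 421 in the untreated samples alone. These counts rest on both untreated samples and on the centring, and which direction had more calls depended on the samples used. Without untreated replicate 1, 132 regions rose and 4 fell, without untreated replicate 2, 84 rose and 3 fell, without IL-4 replicate 1, 1041 rose and 1466 fell, without IL-4 replicate 2, 929 rose and 1145 fell, with the upper 50% of the peaks of each sample, 823 rose and 1116 fell, and without centring limma called 0 in either direction (2014 higher and 3149 lower at an unadjusted p of at most 0.05).

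**Figure D2:**
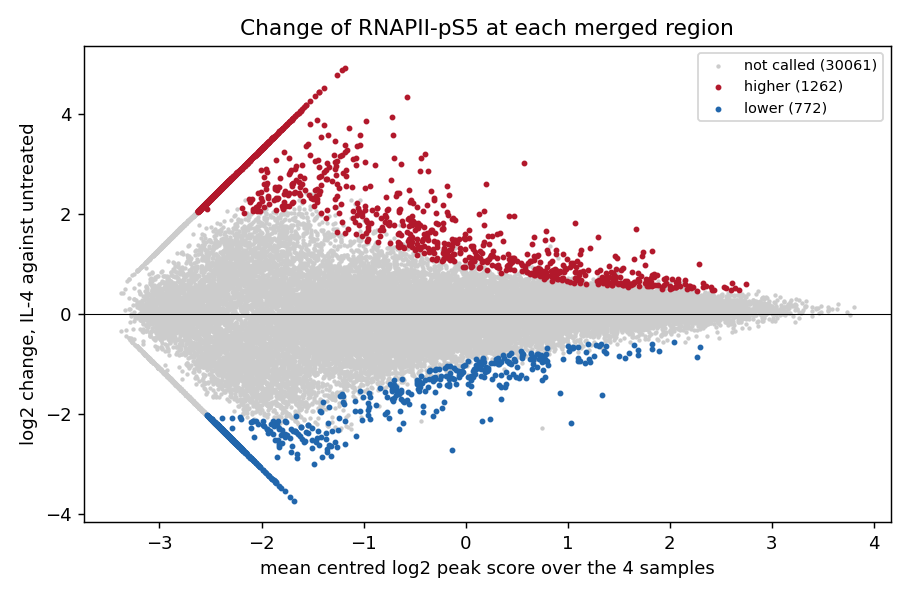
Change of each merged region after IL-4 (y axis, log2) against its mean centred log2 score over the 4 samples (x axis), with called regions in red (1262 higher) and blue (772 lower). The straight edges at the left are regions with a peak in 1 group alone, where the other group was set to the lowest score, so their changes depend on that floor.

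The classes did not move alike. Promoter regions had a median change of 0.11, against -0.05 in introns and -0.12 between genes. Of 7345 promoter regions, 208 rose (2.83%) and 61 fell (0.83%). Of 10915 intron regions, 419 rose (3.84%) and 259 fell (2.37%), and of 10314 intergenic regions, 537 rose (5.21%) and 408 fell (3.96%). Exons had 35 regions that rose and 10 that fell among 947. The promoter median was 0.00064 without centring, where the median over introns was -0.16 and over intergenic regions -0.23, so the sign of a class median is relative to the shared regions. No test was made between classes.

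**Figure D3:**
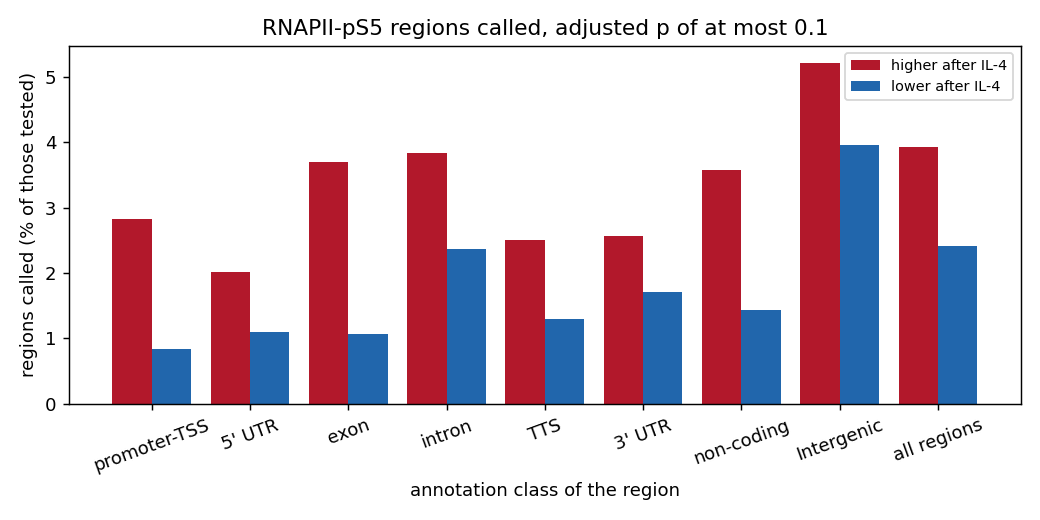
Share of the tested regions of each annotation class that were called higher (red) or lower (blue) after IL-4 (y axis, %). Intergenic regions had the highest share in both directions (5.21% and 3.96%), and promoters had 2.83% higher and 0.83% lower.

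At promoters with a peak in all 4 samples, the largest rise was at Tbc1d16, which encodes a Rab GTPase-activating protein (chr11:119227451-119228684). It scored 6.09 and 4.11 in the untreated samples and 32.7 and 27.4 with IL-4, a change of 2.69 ± 0.37 (SE, limma adjusted p = 0.017). The promoter of Itgb8, an integrin chain that helps to activate TGF-beta, went from 4.76 and 2.71 to 20.3 and 20.1, a change of 2.60 ± 0.47 (SE, limma adjusted p = 0.033). Zfp36l2, an RNA-binding protein that promotes mRNA decay, Lmtk2, a kinase, and Hgsnat, a lysosomal acetyltransferase, rose by 1.92, 1.92, and 1.89.

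The largest promoter falls were at 2200002J24Rik, Rasgef1a, Ap2m1, Ado, and Per1, with changes between -1.82 and -1.54. At Ap2m1, a subunit of the clathrin adaptor AP-2 (chr16:20534993-20536333), scores of 81.4 and 58.2 became 23.6 and 19.7, a change of -1.57 ± 0.19 (SE, limma adjusted p = 0.012). At Per1, a repressor of the circadian clock, 32.0 and 23.3 became 8.66 and 8.71, a change of -1.54 ± 0.32 (SE, limma adjusted p = 0.049). Both IL-4 samples were lower at both promoters, which were chosen as large called falls. Without untreated replicate 1 the adjusted p was 0.21 at Per1 and 0.14 at Itgb8, and without untreated replicate 2 it was 0.21 and 0.16, while Ap2m1 and Tbc1d16 stayed under 0.1.

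Away from promoters the rises were larger. The intergenic regions near 2310020H05Rik, BC017158, Slc22a12, Rmi2, and Ang6 rose by 3.37, 3.20, 3.13, 3.12, and 3.02. Near Ang6 (chr14:43998366-43999704) the untreated samples scored 12.2 and 9.93 and the IL-4 samples 86.4 and 79.5, a change of 3.02 ± 0.21 (SE, limma adjusted p = 0.0017). Near BC017158 they were 8.25 and 3.39 against 46.0 and 44.0. Near Rmi2 (chr16:10843431-10845278), they were 8.25 and 3.39 against 50.3 and 35.9. These regions were chosen as the largest called rises, so the distance between the groups follows from the choice.

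Falls of this kind were near Gm44, Ivns1abp, Stab1, 9530003J23Rik, and Fbln5, between -2.71 and -2.17. Near Gm44 scores of 55.3 and 44.0 became 7.31 and 6.67, a change of -2.71 ± 0.28 (SE, limma adjusted p = 0.0079). Near 9530003J23Rik (chr10:117250185-117250807), which lies beside the lysozyme genes, 109 and 77.2 became 19.7 and 17.8, a change of -2.18 ± 0.18 (SE, limma adjusted p = 0.0035). The intron of Stab1, a scavenger receptor of macrophages, went from 26.4 and 33.5 to 3.54 and 8.98. Of the 20 promoter and distal regions named here, 10 lost their call without untreated replicate 1 and 13 without untreated replicate 2, all with the same direction. These 20 regions were not matched to the regions merged anew from the upper 50% of the peaks of each sample.

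A peak appeared in both IL-4 samples and in neither untreated sample at 1415 of the 41245 regions, or 3.43%. The opposite pattern was found at 2046 regions, or 4.96%. Regions seen in IL-4 samples alone were 592 intergenic, 581 intronic, and 83 promoter regions, and those of untreated samples alone were 926, 861, and 79. Most were weak, with a median score of 6.41 and 5.85. A peak of the other group lay within 500 bp of 16.7% of the first and 12.3% of the second. For comparison, 4355 regions were seen in untreated replicate 1 alone and 2134 in IL-4 replicate 1 alone, so presence in 1 sample is common.

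The strongest regions of the IL-4 samples alone were mostly far from start sites. The intergenic region nearest Gpc1, a heparan sulfate proteoglycan, scored 48.4 and 46.7 after IL-4. The region near 1700036G14Rik scored 49.6 and 42.6, and the intron-class region nearest Tax1bp1, an autophagy receptor that restrains NF-kB signalling, scored 42.2 and 44.2. A promoter stood among them. At Bcl6, a transcriptional repressor, a peak upstream of the start site (chr16:23988937-23989473) scored 27.2 and 41.8 after IL-4 and was absent before. Pim3, a survival kinase, had an upstream region with 44.0 and 29.0, and 2 regions near Adipoq, which encodes adiponectin, scored 31.7 and 35.9, and 42.0 and 19.0.

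Of the untreated samples alone, the strongest was a promoter region of Chst11, a chondroitin sulfotransferase (chr10:82984817-82985300), with 27.1 and 21.3, and the nearest IL-4 peak was 26128 bp away. The intron-class region nearest Vac14, which lies upstream of its start site, scored 32.4 and 13.8, and that near Gstm4, a glutathione transferase, 20.3 and 20.0. At Picalm and Lrp1, both of endocytosis, IL-4 peaks lay 101 and 157 bp from the lost region.

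Some gene names had several called regions. A total of 1619 gene names had a called region, 172 had at least 2 that rose, and 74 at least 2 that fell, while 81 had both directions. Socs1, which inhibits the kinases of cytokine receptors, had 8 risen regions of 14, more than any other name. Fcgr2b, the inhibitory Fc gamma receptor, had 5 of 8, Slc30a4, a zinc transporter, 5 of 5, and Flt1, a receptor for VEGF, 4 of 7. Arg1, which splits arginine, had 3 of 4, and Cish, a feedback inhibitor of cytokine signalling, 3 of 3. Lyz1, a lysozyme gene, had the most fallen regions, 4 of 7, and 2 risen ones. Acot1, Dkk2, Sdc1, and Nrp1 had 3 fallen regions of 3, 6, 4, and 15, and no risen one. Regions take the name of the nearest start site, and these genes were picked after the values had been seen. Of all regions 3.93% rose and 2.41% fell. Names with more regions can hold more calls, and whether calls share names beyond that was not tested.

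Genes were read by the sum of the scores of their non-intergenic peaks. With the gene that each file gives each peak, 72 of 11958 genes rose (0.602%) and 60 fell (0.502%) by limma at an adjusted p of at most 0.1. At shared promoters the same peak carries 1 gene in some samples and its neighbour in others. Peaks of a merged region were therefore all given the gene of its highest peak, a choice made after seeing this. Then 286 of 11826 genes rose (2.42%) and 352 fell (2.98%), and 44 of the 72 and 34 of the 60 were called again in the same direction. Values below are from this second count. It fell to 185 risen genes without IL-4 replicate 1, to 177 without IL-4 replicate 2, and to 121 fallen genes without untreated replicate 2. Without centring 84 rose and 99 fell, and by the highest score of a gene in place of the sum 144 rose and 146 fell. Limited to the upper 50% of the peaks of each sample, only Socs1 rose and only Rftn1 fell (limma, with 528 higher and 672 lower at an unadjusted p of at most 0.05).

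Among the 12 genes that rose most with a peak in all 4 samples were Bcl6, Cish, Itgb8, Tbc1d16, Ptgs1, Gpr44, and Zfp609. The other 5 were Gm17384, Mb21d2, Pcyox1l, Ube2u, and Ppp2r3a. Bcl6 had summed scores of 21.7 and 14.1 without IL-4 and 66.9 and 81.2 with it, a change of 2.10 ± 0.25 (SE, limma adjusted p = 3.43e-05). Cish had 9.79 and 7.28 against 42.8 and 42.0, a change of 2.36 ± 0.36 (SE, limma adjusted p = 0.00070). Ptgs1, the constitutive prostaglandin synthase, had 17.3 and 4.86 against 57.4 and 42.5, and Gpr44, a receptor for prostaglandin D2, had 7.56 and 7.60 against 44.0 and 28.5. Zfp609, a nuclear zinc finger protein, had 22.0 and 8.84 against 61.4 and 63.6. In each gene the groups were apart, which the rule for choosing the genes required.

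The 12 largest falls had Slc36a3, Mfap2, Gm15413, Slc26a9, Stac2, Cd93, Cgnl1, Mapt, Cd300lg, Gm6498, Stab1, and Gm10007. Stab1 had 72.4 and 70.7 without IL-4 and 15.2 and 21.0 with it, a change of -1.97 ± 0.27 (SE, limma adjusted p = 0.00021). Cd93, a surface lectin-like receptor, had 44.2 and 22.3 against 9.44 and 5.45, a change of -2.10 ± 0.43 (SE, limma adjusted p = 0.0063). Slc36a3, of a family of amino acid transporters, had 56.4 and 35.7 against 10.3 and 5.88, and Mapt, which encodes tau, 19.8 and 18.2 against 3.48 and 5.65. The IL-4 samples lay below the untreated ones in all 12, which the same rule required. Without untreated replicate 2, adjusted p values were 0.11 for Slc26a9, 0.12 for Stac2, 0.23 for Mapt, 0.20 for Cd300lg, 0.12 for Gm6498, and 0.41 for Gm10007. Cd300lg had 0.15 without untreated replicate 1, and Gm10007 had 0.21 without IL-4 replicate 2.

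**Figure D4:**
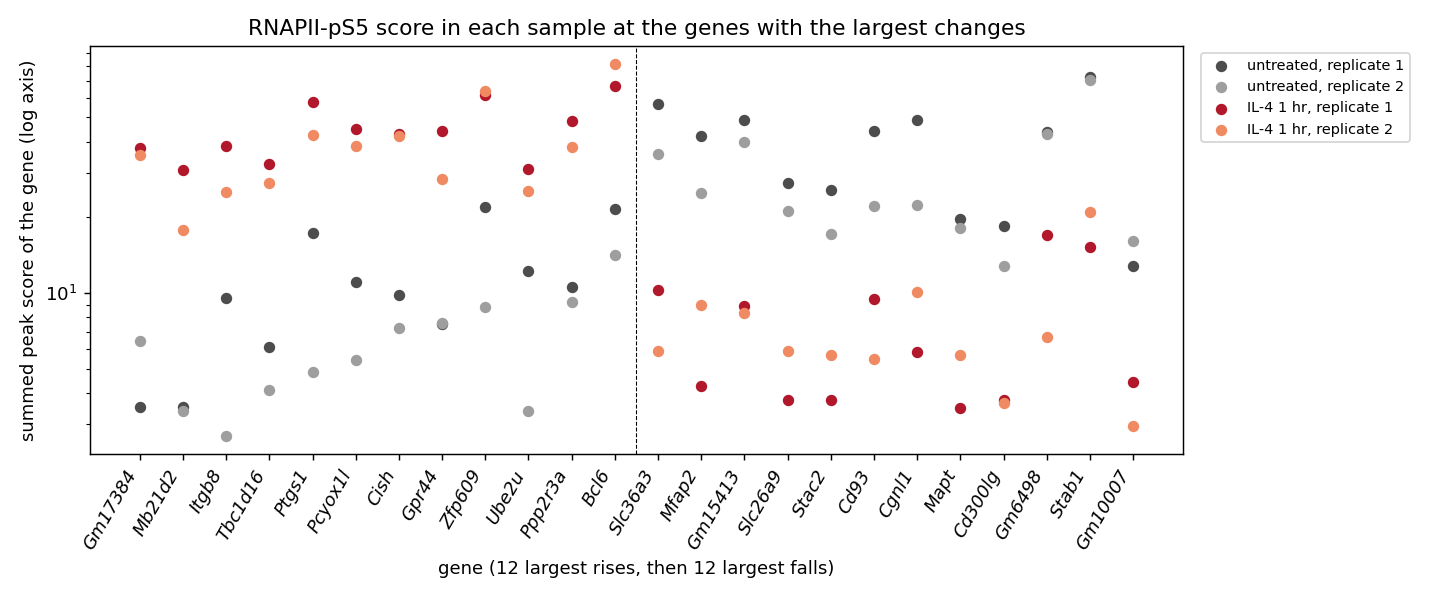
Summed peak score (y axis, log scale) in each of the 4 samples at the 12 genes with the largest rises (left of the dashed line) and the 12 with the largest falls (right). Both IL-4 points lie above both untreated points at every gene on the left and below them at every gene on the right, which the rule for choosing them required.

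Other genes had peaks in 1 group alone, 36 called higher and 43 called lower. The highest-scoring after IL-4 were Tnfaip8l3, a lipid transfer protein (25.9 and 27.3), Slc7a2, a cationic amino acid transporter that carries arginine (23.7 and 28.2), and Il31ra, a cytokine receptor chain (20.9 and 25.1). Serpina3f, Scn3a, Slc6a9, Tppp, and Fam178b completed the 8, and Slc6a9 had an adjusted p of 0.14 without IL-4 replicate 1. Of the untreated samples alone, Mir223, the host of a microRNA of myeloid cells, had 42.8 and 21.9, and Mamld1, Gpr162, Skint3, Rapgef3, Tmem204, Scp2d1, and Sorbs3 followed, with an adjusted p of 0.15 for Rapgef3 without untreated replicate 1.

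Genes were also read by lists. Over all genes 2.42% rose and 2.98% fell, and each list's count stands beside those shares. Counts of regions stand beside 3.93% that rose and 2.41% that fell over all regions. In all, 34 list genes were called. Without centring 8 kept their calls, namely Cish, Bcl6, Socs2, Socs1, Flt1, Ccl7, Clec4e, and Edn1, and 26 lost them (limma adjusted p of 0.13 to 0.90). By the highest score in place of the sum 18 kept their calls and 16 lost them. With the upper 50% of the peaks of each sample, Socs1 alone kept its call among the 32 that could be fitted.

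In the IL-4 receptor and STAT6 pathway, most of the called genes encode feedback inhibitors of cytokine signalling. Of 14 genes tested, 5 rose and none fell: Socs2, Cish, Bcl6, Socs1, and Socs3. The median change of the list was 0.13, against -0.0015 over all genes. Socs1 had summed scores of 65.9 and 40.8 without IL-4 and 217 and 190 with it, a change of 2.00 ± 0.14 (SE, limma adjusted p = 8.13e-09). By its highest peak alone the change was -0.26. The sum was carried by 7 risen intron-class and TTS regions between 40081 and 95550 bp downstream of the Socs1 start site, which take its name as the nearest one. Socs2 had no untreated peak and 11.2 and 14.5 after IL-4, and its adjusted p was 0.26 without IL-4 replicate 2. Socs3 had 59.3 and 25.4 against 87.9 and 73.8, with an adjusted p of 0.19 without centring. Irs2, which links the receptor to phosphoinositide signalling, had 129 and 114 against 127 and 122 and was not called. Among regions with Irs2 as the nearest start site, 2 seen after IL-4 alone passed the test, and both lie upstream of it in intron-class sequence. The pathway's 70 regions had 18 that rose and none that fell.

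Of the alternative activation markers, 14 were tested and 5 rose, namely Flt1, Arg1, Vwf, Mrc1, and Pdcd1lg2, with a median of 0.36 over the list. Vwf, which encodes von Willebrand factor, had 73.6 and 41.3 against 126 and 101. Mrc1, the mannose receptor, had 67.9 and 53.6 against 112 and 87.6. Arg1 had 32.0 and 10.8 against 52.0 and 34.9, where the groups were close but did not overlap. At the promoter of Pdcd1lg2, a ligand of PD-1 (chr19:29410588-29411328), a region absent from untreated cells scored 23.7 and 24.6. Of the list's 73 regions 19 rose and 1 fell, near Ch25h. Without centring the adjusted p was 0.13 for Vwf, 0.56 for Mrc1, 0.27 for Arg1, and 0.90 for Pdcd1lg2. By the highest score in place of the sum Vwf alone kept its call. The limma adjusted p was then 0.44 for Flt1, 0.70 for Arg1, 0.43 for Mrc1, and 0.75 for Pdcd1lg2. With the gene that each file gives each peak, 1 of 14 rose. Without untreated replicate 2 the adjusted p values were 0.30 for Flt1, 0.31 for Arg1, and 0.12 for Pdcd1lg2, and without IL-4 replicate 1 they were 0.21 for Arg1 and 0.25 for Pdcd1lg2, while Flt1 had 0.19 without IL-4 replicate 2.

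Among early response and polarization transcription factors 22 were tested, of which Batf3, Irf4, Egr2, and Myc rose and Nab2, a corepressor of EGR proteins, fell. Irf4 had 70.3 and 32.4 against 98.0 and 80.9, a change of 0.93 ± 0.19 (SE, limma adjusted p = 0.0057). Egr2 had 42.7 and 37.9 against 76.3 and 68.8, a change of 0.88 ± 0.19 (SE, limma adjusted p = 0.011). Myc had 47.7 and 28.6 against 58.6 and 61.8. Without centring the adjusted p was 0.33 for Irf4 and 0.49 for Egr2. Batf3 and Nab2 lost their calls without any 1 of 3 or more samples, and Myc without untreated replicate 2 (adjusted p = 0.22) or IL-4 replicate 2 (0.25). Of the AP-1 family, Fosl2 and Batf3 rose among 11 tested. Fosl2 had an adjusted p of 0.17 without untreated replicate 2 and 0.11 without IL-4 replicate 2. At Fos, whose product is a subunit of AP-1, the promoter region rose from 59.4 and 57.5 to 99.3 and 83.4, while a 3' UTR region with 12.1 and 9.52 in untreated cells had no IL-4 peak. Nearest Batf, an intron-class region fell from 159 and 118 to 70.0 and 70.6.

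Among chemokines 11 were tested, and Ccl7 and Ccl2, neighbours that attract monocytes, rose. Ccl7 had 5.88 and no peak without IL-4 and 61.1 and 56.9 with it, a change of 4.26 ± 0.47 (SE, limma adjusted p = 2.64e-05). Ccl2 had 42.7 and 22.6 against 70.3 and 51.7, with an adjusted p of 0.12 without untreated replicate 2 and 0.13 without IL-4 replicate 1. Among chemoattractant receptors 11 were tested, and Cx3cr1 and Cxcr4 fell. Cx3cr1, the fractalkine receptor, had 62.8 and 45.4 against 33.1 and 16.5. The adjusted p without untreated replicate 2 was 0.15 for Cx3cr1 and 0.33 for Cxcr4, and Cx3cr1 had 0.16 without IL-4 replicate 2.

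Of 14 C-type lectin receptors tested, Clec4e, Clec12a, and Clec4d fell and Mrc1 rose. Clec4e, which senses mycobacterial glycolipid, had 21.3 and 12.2 without IL-4 and 2.98 and no peak with it. Clec12a, an inhibitory receptor, had 72.4 and 52.1 against 28.2 and 24.2, a change of -1.20 ± 0.22 (SE, limma adjusted p = 0.0033). Clec4d, the neighbour and partner of Clec4e, had 63.7 and 51.5 against 31.3 and 29.0, with an adjusted p of 0.24 without untreated replicate 2. Without centring it was 0.15 for Clec12a, 0.46 for Clec4d, and 0.48 for Fcgr2b. Of 5 Fc gamma receptor genes Fcgr2b rose, from 80.1 and 42.8 to 109 and 91.6.

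In the TGF-beta and SMAD pathway, 3 of 16 genes fell, against 2.98% of all genes, and the list had a median change of -0.20. Smad6, an inhibitory SMAD, had 68.0 and 48.9 against 26.8 and 22.7, a change of -1.20 ± 0.23 (SE, limma adjusted p = 0.0047). Smad3, a signal transducer, had 97.0 and 74.3 against 48.7 and 50.6, and Tgfb3, a ligand, 90.3 and 63.0 against 49.4 and 41.1. By the highest score in place of the sum all 3 lost their calls. The changes were then -0.70 for Smad6, -0.14 for Smad3, and -0.42 for Tgfb3 (limma adjusted p of 0.29, 0.90, and 0.68). With the gene that each file gives each peak, 1 of 16 fell. Without centring the adjusted p was 0.16 for Smad6, 0.53 for Smad3, 0.62 for Tgfb3, and 0.20 for Apoe. Without untreated replicate 2 it was 0.15 for Smad3 and 0.16 for Tgfb3, which had 0.11 without IL-4 replicate 2. In cholesterol efflux and LXR, Nr1h3 and Apoe fell and Abcg1 rose among 14. Apoe, an acceptor of cholesterol, had 71.5 and 53.0 against 32.4 and 24.1, a change of -1.11 ± 0.22 (SE, limma adjusted p = 0.0057). Nr1h3, which encodes LXR-alpha, and Abcg1 lost their calls without at least 2 of the 4 samples each.

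Growth and vasoactive factors had 2 genes that rose and 1 that fell of 11. Edn1, which encodes endothelin 1, had 8.25 and 7.28 against 33.6 and 20.5, and Hbegf, an EGF receptor ligand, 36.0 and 34.1 against 75.8 and 59.5. Hgf had 40.4 and 42.4 against 22.3 and 17.3, with an adjusted p of 0.46 without untreated replicate 2 and 0.12 without IL-4 replicate 2, and Edn1 had 0.24 without IL-4 replicate 1. Of 17 interferon response genes Irf7 alone was called, and it rose from 89.8 and 51.7 to 121 and 104.

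No gene passed the test among 20 Toll-like receptors and adaptors, 15 inflammasome and interleukin-1 genes, 17 NF-kB subunits and inhibitors, 14 MAP kinase phosphatases and feedback genes, or 42 cytosolic ribosomal protein genes (limma, with 5, 4, 1, 3, and 2 at an unadjusted p of at most 0.05). With the gene each file gives each peak, Nek7 of the inflammasome list and Rpl18 rose and Rpl32 fell, at changes of 0.69, 5.63, and -2.65, while with the gene of the merged region these were 0.30, 0.49, and 0.13. Single regions of these lists were called, which is to be read beside 3.93% of all regions that rose and 2.41% that fell. An intergenic region nearest Tlr2 fell from 33.3 and 31.8 to 13.9 and 15.8, the only call of 75 regions in its list. Of 90 NF-kB regions 3 rose, at Rel and Nfkb1, and 4 fell, 2 of them at Nfkbiz. The Nek7 promoter region was the only call of 48 regions in the inflammasome list, and it rose. Of 80 ribosomal protein regions 3 rose and 1 fell, beside 3.93% and 2.41% of all regions. Dusp4 had 4 regions that rose and 1 that fell, though the gene itself had 91.3 and 67.5 against 75.8 and 79.0. Among macrophage markers Mrc1 rose and Cx3cr1 fell of 10, and Csf1r had 107 and 82.0 against 102 and 94.2. None of the 6 other cell markers tested was called.

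The acetylated histone H3K27Ac, a mark of active promoters and enhancers measured in other libraries, moved with RNAPII-pS5. It was present at 860 of the 1262 risen regions and at 550 of the 772 fallen ones. At the risen regions its mean centred log2 signal was -1.64 and -1.68 in the untreated samples and -0.18 and -0.23 after IL-4, a difference of 1.46. At the fallen regions it was -0.18 and -0.26 against -1.02 and -1.06, a difference of -0.82. Over all regions tested the difference was 0.036. The groups did not overlap in either set or over all regions, and the exact permutation test gave its smallest p of 0.33 in each of the 3, so the sets differ from all regions in the size of the difference. Signal was higher after IL-4 at 92.3% of the risen regions, 7.45% of the fallen ones, and 50.4% of all. At risen promoters the difference was 0.51, and at risen intron and intergenic regions 1.68.

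Peaks of cofactors were counted at the same regions. HDAC3, a histone deacetylase, had a peak at 22.2% and 15.5% of the risen regions in untreated cells and at 51.0% and 47.2% after IL-4. Over all regions tested it was 29.6% and 21.6% against 32.5% and 29.1%. HDAC2, of the same family, went from 37.9% and 32.6% to 68.9% and 57.3% at risen regions, and over all regions it was 49.6% and 44.9% against 56.5% and 43.3%. HDAC1 went from 49.8% and 43.1% to 62.5% and 60.9% there, while over all regions it went from 65.3% and 59.1% to 54.3% and 52.3%. At fallen regions HDAC1 went from 68.3% and 62.4% to 44.3% and 42.4%. HDAC2 went there from 63.3% and 58.5% to 59.2% and 45.6%, HDAC3 from 44.4% and 32.6% to 36.0% and 32.6%, and p300 from 83.7% and 90.0% to 87.6% and 88.0%. The HDAC1 samples held 30511 and 26836 peaks without IL-4 and 23270 and 22340 with it, and the part of this was not tested. PU.1, a factor that defines the macrophage lineage, went from 56.7% and 52.0% to 70.8% and 71.9% at risen regions and was between 67.9% and 74.5% at fallen ones in all samples, while over all regions it went from 61.1% and 56.6% to 59.6% and 60.9%. The acetyltransferase p300 went from 60.9% and 76.3% to 85.0% and 86.0% at risen regions and from 69.1% and 82.1% to 83.1% and 84.0% over all regions, but its first untreated sample had 44787 peaks against 66710 to 69360 in the others, and its part in this was not tested. No test was made of these shares.

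Of the 956 intron and intergenic regions that rose, 30.5% held the STAT6 palindrome in their 200 bp centre, against 2.40% of the 667 that fell and 7.28% of all 21229 such regions. The shorter STAT palindrome was in 14.1%, 4.80%, and 7.16%. The AP-1 site went the other way, with 11.2% of the risen, 17.8% of the fallen, and 13.1% of all, and the C/EBP core was in 11.4%, 15.6%, and 11.8%. The PU.1 core was in 7.22% of the risen, in 67 of the 667 fallen, and in 9.01% of all, and the NF-kB site was in under 1% of each set. At promoters 6.73% of the risen and 3.47% of all regions held the STAT6 palindrome. In a 600 bp centre, added after seeing the data, it was in 55.3% of the risen, 10.2% of the fallen, and 18.6% of all intron and intergenic regions. A match is not a site, and no test was made.

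**Figure D5:**
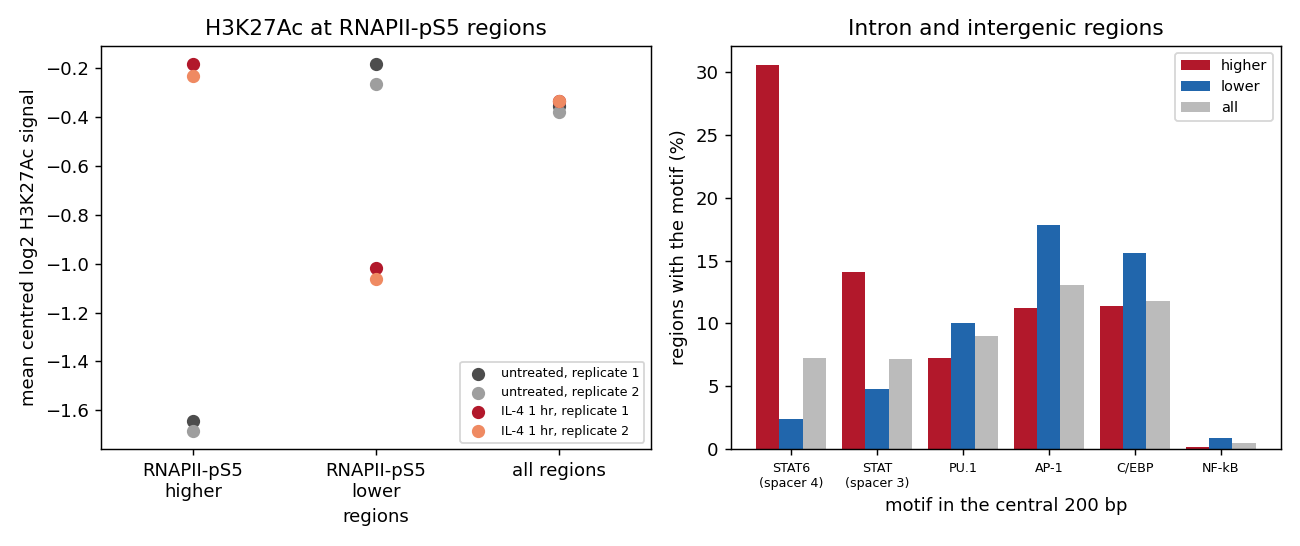
Left, mean centred log2 H3K27Ac signal (y axis) of each sample at the RNAPII-pS5 regions that rose, that fell, and at all regions tested. Right, share of intron and intergenic regions (y axis, %) whose 200 bp centre holds each motif, for regions that rose (red), fell (blue), and all (grey). H3K27Ac was higher in both IL-4 samples at the risen regions and lower in both at the fallen ones, and the STAT6 palindrome was in 30.5% of the risen regions.

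The genes called at 1 hr were then read in a second experiment with 2 control samples and 2 samples kept in IL-4 for 24 hr, which held 19279 to 22149 RNAPII-pS5 peaks. In it, 454 of 9485 genes rose (4.79%) and 381 fell (4.02%) by limma at an adjusted p of at most 0.1. Of the 286 genes that rose at 1 hr, 228 could be tested at 24 hr, where 37 rose and 7 fell, with a median change of 0.57. Of the 352 that fell at 1 hr, 306 could be tested, where 31 rose and 29 fell, with a median of -0.017. Over the 9249 genes tested at both times the median was 0.0073. The changes at the 2 times differed by the interaction term at 62 of the 286 genes and at 101 of the 352. In 55 of the 62 the change was lower at 24 hr, and in 99 of the 101 it was higher. Over all 11783 genes the interaction called 395 lower (3.35%) and 523 higher (4.44%) at 24 hr. The interaction uses the same 1 hr samples that chose the genes, so these counts are a description.

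Single genes differed in this. Itgb8 had no control peak at 24 hr and 20.2 and 16.3 with IL-4, a change of 3.46 ± 0.51 (SE, limma adjusted p = 0.056). Il31ra had none and 24.9 and 34.1, Cish none and 7.22 and 7.25, and Bcl6 none and 6.77 and 6.17, and each of the 3 rose. Stab1 fell at 24 hr as well, from 41.8 and 49.4 to 10.1 and 12.1, a change of -2.09 ± 0.24 (SE, limma adjusted p = 0.053). Mb21d2 had 5.16 and 3.89 in the controls and no IL-4 peak at 24 hr. Slc26a9 and Cgnl1, which fell at 1 hr, had no control peak at 24 hr and rose to 21.2 and 24.9, and to 11.88 and 11.47.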

How the data were processed

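RNAPII-pS5 ChIP-seq peaks of 2 untreated and 2 IL-4 samples were analysed, with H3K27Ac, p300, PU.1, HDAC1, HDAC2, and HDAC3 of the same treatments and RNAPII-pS5 after 24 hr of IL-4. Chromatin was cross-linked with DSG and then formaldehyde, per the labels. The authors aligned reads to mm10, called peaks per sample, and removed blacklisted regions. The submitters' processing notes name BWA 0.7.10, SAMtools 0.1.19, HOMER 4.2, and MACS2 2.0.10. The deposited score of a peak is taken to be the −log10 of a p-value or q-value from its range, and the deposited H3K27Ac value is a signal of normalized tags. Reads were not used, so depth is unknown. Which of the 2 library kits named in the labels made each library is not given in the sources used here.

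Missing peaks were given the lowest score of the 4 samples, 1.68, before the log2 scale. Features with a peak in at least 2 samples were fitted with limma 3.58.1 (R 4.3.3, trended empirical Bayes). A call was a Benjamini-Hochberg adjusted p of at most 0.1. Regions were merged with bedtools 2.31.1. Named genes were the 12 largest rises and falls with a peak in all 4 samples and 1 direction in all 4 pairs, the 8 highest-scoring with a peak in 1 group alone, and, of 19 gene lists, the called members and the 2 highest-scoring ones. Named regions were the 5 largest rises and falls of promoters and of intron and intergenic regions. Members and lists were chosen with earlier results of these data known. The rule was applied to the gene of the merged region, which was added after seeing the data. Sequences came from GRCm38, and 1 chosen by the rule is not reported here. RNAPII-pS2, p65, and LPS samples were not used.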

Additional observations from a re-analysis of the deposited data

Results flagged for a closer look

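The change at 24 hr of IL-4 differed from that at 1 hr at 17 of the 40 genes with the largest changes at 1 hr (limma interaction term over 8 samples, adjusted p of at most 0.1). Values are the log2 change at 24 hr minus that at 1 hr. The genes were chosen for their change in the same 1 hr samples that the term uses, so the count is a description. Over all genes the term was called at 918 of 11783. The 24 hr experiment had its own controls and fewer peaks.

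Among genes that fell at 1 hr the difference was 6.12 at Slc26a9, 5.70 at Mamld1, 4.90 at Cgnl1, 4.16 at Gm10007, 3.38 at Tmem204, 3.08 at Sorbs3, 3.02 at Skint3, 2.56 at Slc36a3, 2.28 at Gm15413, and 1.96 at Cd300lg. Slc26a9, Cgnl1, Mamld1, and Gm10007 had higher scores with IL-4 than without it at 24 hr. Tmem204, Sorbs3, and Cd300lg had no peak in any sample of the 24 hr experiment, so their differences are close to the change at 1 hr with the sign turned.

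Among genes that rose at 1 hr the difference was -5.05 at Serpina3f, -4.51 at Fam178b, -4.35 at Mb21d2, -3.68 at Slc6a9, -3.01 at Tppp, -2.21 at Ppp2r3a, and -2.02 at Gpr44. Serpina3f had 15.2 and 14.6 in the 24 hr controls and 7.73 and 5.75 with IL-4. Slc6a9 and Ppp2r3a had no peak at 24 hr.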

How the results depend on the processing

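Regions that rose numbered 1262 and those that fell 772. They numbered 0 and 0 without centring (limma, smallest adjusted p 0.14, with 2014 and 3149 at an unadjusted p of at most 0.05), 349 and 86 at an adjusted p of at most 0.05, and 3681 and 3365 at an unadjusted p of at most 0.05. With the upper 50% of peaks 823 rose and 1116 fell. Leaving out 1 sample gave 84 to 1041 that rose and 3 to 1466 that fell. The few that fell without untreated replicate 1 were near 9530003J23Rik, Ap2m1, Cpeb1, and Gm44, and without untreated replicate 2 near the first 3 of these.

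Genes by the name of each peak numbered 72 and 60. They numbered 0 and 0 with the upper 50% of peaks (limma, 512 and 619 at an unadjusted p of at most 0.05), 210 and 245 with intergenic peaks, 28 and 27 at an adjusted p of at most 0.05, 716 and 832 at an unadjusted p of at most 0.05, and 286 and 352 with the gene of the merged region. Genes that fell were 141 with a peak in every sample, 93 with a floor 4 times as high, and 38 by the highest score. Leaving out 1 sample gave 101 to 138 and 29 to 213. Genes by the merged region, 286 and 352, numbered 84 and 99 without centring, 1 and 1 with the upper 50% of peaks (Socs1 and Rftn1), 144 and 146 by the highest score, 511 and 702 with intergenic peaks, 172 and 205 at an adjusted p of at most 0.05, and 899 and 1088 at an unadjusted p of at most 0.05. Leaving out 1 sample gave 177 to 347 and 121 to 391.

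Samples with the same replicate number did not deviate together (r = 0.032 over 22029 regions). This cannot show whether the numbers pair samples by animal or culture. With a replicate block, 1383 regions rose and 831 fell, 123 and 112 genes by the name of each peak, and 447 and 570 by the merged region, and no named gene or region lost its call. Where 1 sample is left, it is assumed to vary like the other group.

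Regions in 1 group alone stayed within 1.5 times under both alternatives. The promoter share differed by -1.04 to 2.77 percentage points when 1 sample was left out, and its sign turned without untreated replicate 1 (-1.04) and without IL-4 replicate 2 (-0.033). Class medians without centring were 0.00064 for promoters, -0.16 for introns, and -0.23 for intergenic regions. With a peak in every sample they were -0.019 for introns and -0.080 for intergenic regions. Leaving out 1 sample gave 0.11 to 0.13 for promoters, -0.11 to -0.0079 for introns, and -0.18 to -0.066 for intergenic regions. H3K27Ac kept its direction at risen and fallen regions in all alternatives run.

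Of 92 named genes and regions, 45 kept their call without centring and 47 lost it. With a floor 4 times as high 91 kept it and 1 lost it. By the highest score 45 named genes kept their call and 26 lost it, and with intergenic peaks 68 kept it and 4 lost it. Of 27 genes of the largest changes that could be fitted with the upper 50% of peaks, none kept its call. Socs1 turned by its highest score (-0.26). With the upper 50% of peaks the values listed for the regions at Zfp36l2 (-0.0145), Ap2m1 (0.068), Ado (0.017), and 2310020H05Rik (-0.20) turned in sign. So did those listed for Ang6 (-3.23, limma adjusted p = 0.041), Stab1 (0.33), and Fbln5 (0.39). Regions were merged and numbered anew there, and the values were looked up by the old numbers. They are therefore not values of the named regions and cannot show that these turned. At Ap2m1 the scores of 81.4, 58.2, 23.6, and 19.7 all exceed the median peak score of their sample (12.9, 11.7, 12.3, and 12.1). For genes, that alternative drops weaker peaks in single samples, so a gene can lose its peak in 1 group. The cause of the lost calls was not tested. Depth limits all scores, and small changes between samples of unequal depth are imprecise.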
